A study of Caenorhabditis elegans and Caenorhabditis briggsae
Caenorhabditis elegans with 146 samples.

Results

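The 6 libraries described here are the spike-in mRNA-seq experiment of the study, 3 libraries of set-4 mutant L1 larvae against 3 libraries of wild type N2 L1 larvae, and they make up 6 of the 146 samples of the series. They were chosen by their labels, which give the strain pair, the stage and the words for a spike-in. The set-4 libraries come from MT14911, set-4(n4600) II, a null allele of set-4, mixed with C. briggsae AF16. The N2 libraries come from N2, the laboratory wild type hermaphrodite strain, mixed with the same C. briggsae AF16. Both groups were whole first-stage (L1) larvae that had been fed for 6 hours after hatching, with 10 C. elegans larvae counted in for every 1 C. briggsae larva before RNA was made, and neither group received any other treatment. Poly(A) RNA of the mixture was sequenced, so the C. briggsae counts measure how much RNA a fixed number of worms gives in each library. A level on this scale is per worm, and fewer cells of a type and less RNA per cell cannot be told apart.

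Histone H4 lysine 20 is monomethylated by SET-1, the worm PR-SET7, and SET-4, the worm SUV4-20, converts that mark to the dimethyl and trimethyl forms. In hermaphrodites the dosage compensation complex (DCC), a condensin-based complex, binds both X chromosomes, lowers their transcription and carries with it an enrichment of the monomethyl mark on X. Standard mRNA-seq fixes the total of every library and therefore reports shares of the transcriptome, whereas a spike-in of a second species leaves the total free to move. The question put to these libraries is which genes and gene families fall or rise in absolute level when set-4 is missing.

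The C. elegans gene counts were 2577349, 3215078 and 3132753 in the set-4 libraries and 1533531, 1823671 and 3104019 in the N2 libraries, and the C. briggsae gene counts were 227722 to 331898 in set-4 and 129184 to 288852 in N2. N2 replicates 1 and 2 were the shallowest libraries. The set-4 libraries were closer to each other than the N2 libraries were: the Spearman correlation across the 10080 genes tested was 0.983 to 0.985 between set-4 replicates and 0.931 to 0.960 between N2 replicates. Between the genotypes it was 0.917 to 0.937, so N2 replicates 1 and 2 were about as far from each other as either was from set-4. N2 replicate 1 stood farthest from the others of its group, with 10.7% of genes more than 1 log2 unit away from the mean of the other 2 replicates, against 9.34% for N2 replicate 2, 6.23% for N2 replicate 3 and 0.883% to 1.31% for the set-4 replicates. Differences between replicate libraries exceeded counting noise in every pair, so no library was counted as a repeat of another, and p-values measure the spread between these samples. The p-values per gene treat the C. briggsae scaling as known, so they do not carry an error in mixing or scaling. Results that lean on N2 replicate 1 are given with and without it.

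The deleted gene checked the labels. Its counts were 1, 1 and 1 in set-4 libraries, against 43, 59 and 72 in N2 libraries, and the groups were far apart. Over the pooled libraries and per unit of spike-in, the ratio of set-4 to N2 was 0.0112 for the set-4 gene itself, with an exact binomial 95% interval of 0.00228 to 0.0331 that covers counting error only. Transcripts of set-1, the monomethylase of the same lysine, had spike-in scaled counts of 100.5, 85.6 and 92.5 in set-4, against 114.6, 105 and 128 in N2 (a spike-in scaled count is the read count divided by the C. briggsae size factor of the library). The 3 set-1 values of set-4 lay below the 3 of N2, but the log2 fold change of -0.34 ± 0.19 (SE) did not pass the threshold (edgeR adjusted p = 0.199).

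The summed yield of C. elegans mRNA per spiked-in worm overlapped between the genotypes, while the median gene was lower in set-4. The ratio of summed C. elegans to summed C. briggsae counts was 11.3, 9.70 and 9.44 in set-4 libraries, against 11.9, 11.2 and 10.7 in N2 libraries. Set-4 replicate 1 lay among the N2 values, so the groups overlapped, and the mean log2 ratio differed by -0.16 (exact permutation test over 20 splits, two-sided p = 0.3, where 0.1 is the smallest possible). Gene by gene the shift was clearer: relative to its 6-library mean, the median gene stood at 0.05, -0.17 and -0.17 log2 units in set-4 and at 0.20, 0.12 and 0.07 in N2. These 2 sets of values did not overlap, although the exact test could again not go below 0.1.

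In the test of all genes (edgeR quasi-likelihood, C. briggsae scaling, Benjamini-Hochberg adjusted p under 0.05), 551 genes were higher in set-4, which is 5.47% of the 10080 tested, and 2092 were lower, which is 20.8%. The median log2 fold change of all genes was -0.24. Scaling by the C. elegans counts alone (TMM, no spike-in) moved every fold change up by about 0.22 and evened the split, with 1207 genes (12%) higher and 1192 (11.8%) lower. Of the genes lower with the spike-in, 1192 were also called lower without it, and 549 of the 551 higher genes were also called higher. No gene was called in opposite directions by the scalings. For 3052 genes (30.3%) all 3 set-4 values lay below all 3 N2 values, and for 1025 (10.2%) they lay above them. Family members named below were mostly picked for a small p, so separation of their groups follows in part from that choice. The lower count leaned on single libraries, since 788 genes were called lower without set-4 replicate 2 and 2324 without N2 replicate 1. The higher count was 293 without set-4 replicate 1 and 795 without N2 replicate 1. The C. briggsae genes, which come from the same strain in both mixtures, gave 3 calls among 3978 (0.0754%), and 247 had an unadjusted p under 0.05. The scaling was computed from these same genes, so an error in mixing or scaling could not show in this count. They also carried fewer reads than the C. elegans genes.

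Autosomal and X-linked genes stood apart. The median log2 fold change was -0.31 over 8468 autosomal genes and 0.13 over 1495 X-linked genes, and it was between -0.21 and -0.38 on every autosome. Of X-linked genes 11.8% were called higher and 3.95% lower, whereas of autosomal genes 4.40% were called higher and 23.9% lower. Within each library the X median stood above the autosomal median by 0.21, 0.23 and 0.22 log2 units in set-4 and below it, at -0.24, -0.19 and -0.23, in N2, measured from the 6-library mean of each gene. The difference of 0.44 moved little when each library was left out in turn, 0.43 to 0.45, and it does not depend on the spike-in (exact permutation p = 0.1, the smallest possible). Without the spike-in, the same genes had medians of 0.35 on X and -0.09 on autosomes.

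**Figure D1:**
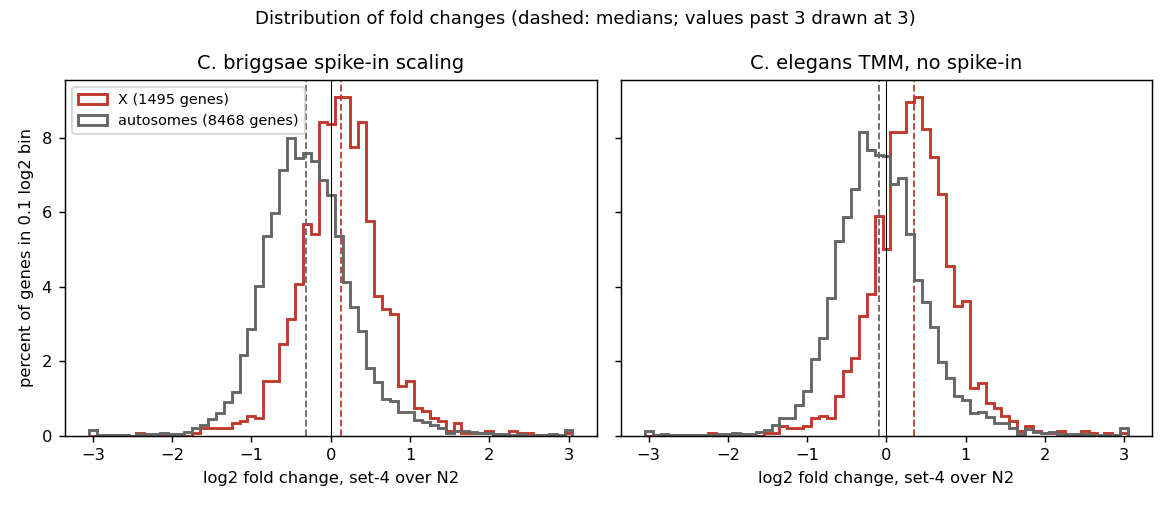
Distribution of log2 fold changes of set-4 over N2 L1 larvae (x axis, log2 units) as the percent of genes in bins of 0.1 (y axis), for X-linked genes (red) and autosomal genes (grey), with C. briggsae spike-in scaling on the left and C. elegans TMM scaling on the right. Dashed lines mark the medians, 0.13 for X and -0.31 for autosomes with the spike-in and 0.35 and -0.09 without it.

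Gene families fell into those below the general shift, those near it, and some above zero. Among the 98 gene classes (letters of the gene name) with at least 10 genes tested, 72 had a median below zero with spike-in scaling and 42 without it. The lowest class medians belonged to pals (-0.87), ints (-0.86), algn (-0.84), rpb (-0.77), eif (-0.75), npp (-0.68), mdt (-0.68), taf (-0.67), gtf (-0.65) and prp (-0.65). The highest belonged to prx (0.58), hsp (0.55), mec (0.35), ttr (0.32), ptr (0.22), col (0.21), glb (0.19), clc (0.18), gpa (0.18) and zig (0.16). Over members not on X, the medians were 0.31 in prx, 0.71 in hsp, 0.20 in mec, 0.13 in ttr and 0.04 in ptr. They were 0.39 in col, 0.17 in glb, 0.19 in clc, 0.10 in gpa and 0.13 in zig, beside -0.31 for autosomal genes. All 10 low classes stayed below zero under C. elegans TMM, which follows from their low medians and the near-constant shift between the scalings. None of the 10 lowest classes held a gene called higher, which their choice by low median favours.

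**Figure D2:**
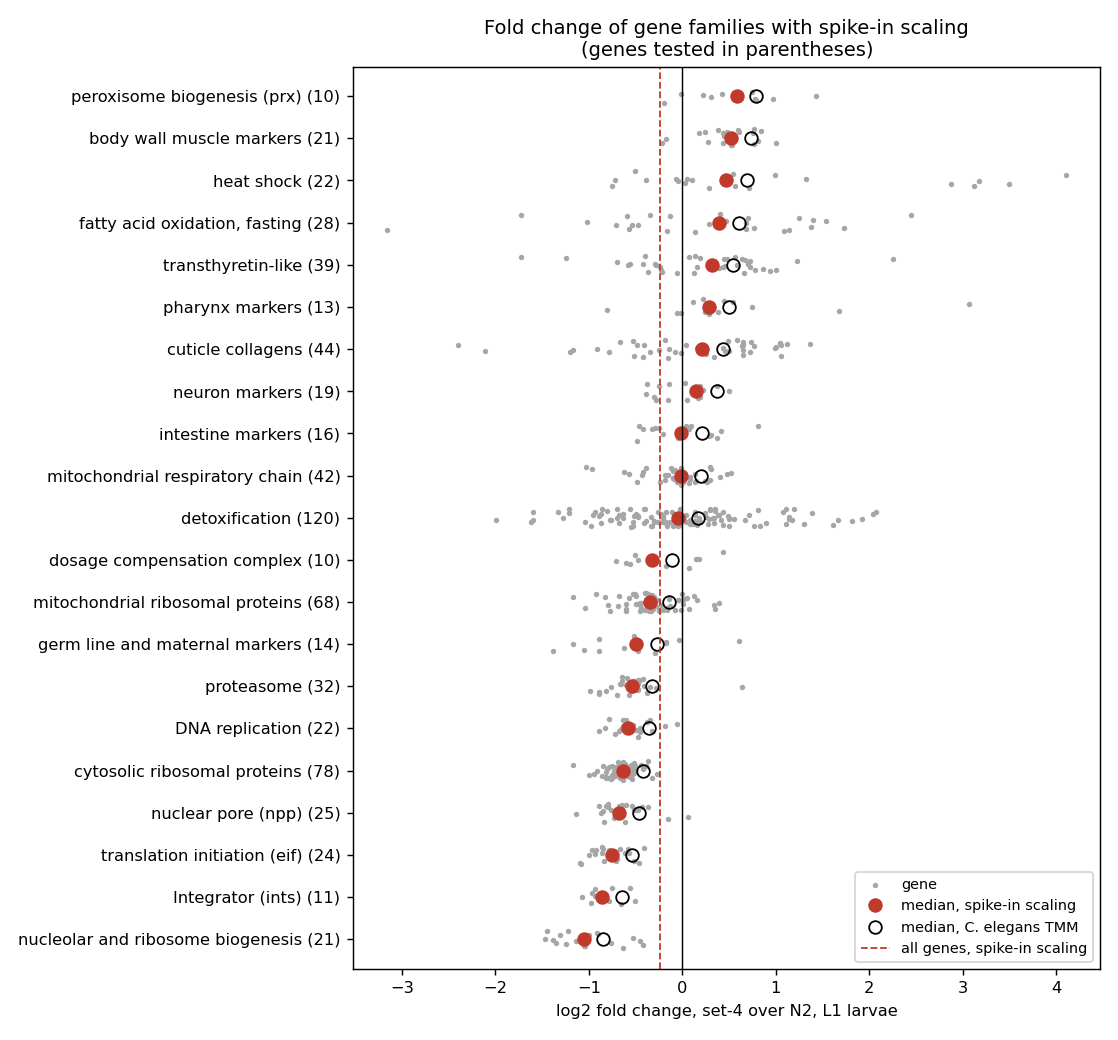
Log2 fold change of set-4 over N2 (x axis, log2 units, spike-in scaling) for the tested genes of 21 families (rows, number of genes in parentheses). Grey points are genes, red circles family medians with spike-in scaling, open circles family medians with C. elegans TMM, and the dashed line is the median of all genes, -0.24. Nucleolar genes lie lowest, with a median of -1.05, and prx, muscle and heat shock genes lie highest, with medians of 0.58, 0.52 and 0.47.

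Genes of ribosome production had the lowest median among the lists with at least 5 tested genes, with nematode-specific peptides close (-1.03, 8 genes tested). Without N2 replicate 3 the order was reversed, at -0.86 for ribosome production and -0.91 for the peptides. Nucleolar and ribosome biogenesis genes, which make and process ribosomal RNA, had a median of -1.05, and 19 of 21 tested were called lower (16 without set-4 replicate 2 or without set-4 replicate 3, 20 without N2 replicate 1), against 20.8% of all genes. Without the spike-in 17 were still lower, with a median of -0.85. Fibrillarin, fib-1, the methyltransferase of the box C/D particles that modify ribosomal RNA, had 626, 491 and 483 spike-in scaled counts in set-4, against 1485, 1207 and 1736 in N2. The 2 groups were separated by a wide gap, and the log2 fold change was -1.47 ± 0.18 (adjusted p = 1.47e-05). The ribosome assembly factor rbd-1 had 114.7, 103 and 115.3 in set-4, against 260.2, 248 and 312 in N2 (log2 -1.31 ± 0.17, adjusted p = 3.99e-05). garr-1, the Gar1 homolog of the box H/ACA particles, had 336, 268 and 278 in set-4, against 635, 682 and 760.2 in N2 (log2 -1.24 ± 0.17, adjusted p = 4.46e-05). Each of these genes was lower in all 3 set-4 libraries than in any N2 library, as were 30.3% of all genes tested. nsun-1, a Nop2-type RNA methyltransferase, fell likewise (log2 -1.22 ± 0.16, adjusted p = 5.15e-05), and so did the RNA polymerase I subunits rpoa-1 (log2 -1.35 ± 0.19) and rpoa-2 (log2 -1.38 ± 0.21), the last 2 named after their values were seen.

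Most cytosolic ribosomal protein genes fell, with a median nearer zero than that of the nucleolar genes. Of 78 tested genes of the cytosolic ribosome, 71 (91.0%, against 20.8% of all genes) were lower and none was higher, with a median of -0.64 and a range of -1.17 to -0.27. The count was 31 without set-4 replicate 2 and 62 without N2 replicate 1, while the median moved only between -0.73 and -0.59, and 64 were lower without the spike-in. Summed over the family, spike-in scaled counts were 207832 to 254991 in set-4 and 315230 to 381376 in N2. rpl-34, a protein of the large subunit, had 1993, 1703 and 1909.9 in set-4, against 3015, 4536 and 3644 in N2 (log2 -1.0 ± 0.17, adjusted p = 4.21e-04). rps-24, of the small subunit, had 1670.5, 1573 and 1579 in set-4, against 2462, 2989.8 and 3263 in N2 (log2 -0.85 ± 0.16, adjusted p = 8.79e-04). The set-4 values were tightly grouped in both genes and the N2 values spread over a wider range above them. rpl-29 (log2 -1.17 ± 0.22) and ubl-1, a ubiquitin-like fusion to a small subunit protein (log2 -0.86 ± 0.16), were the other members with the smallest p. Mitochondrial ribosomal proteins stood nearer the general shift, with a median of -0.35 and 11 of 68 lower (1 without set-4 replicate 2, 3 without the spike-in), 16.2% against 20.8% of all genes. Their strongest member, mrps-22, had 172, 147 and 144 in set-4, against 260.2, 281 and 260.8 in N2 (log2 -0.80 ± 0.17, adjusted p = 0.00186).

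Most translation factors were lower. Of 37 tested initiation and elongation factors 25 (67.6%, against 20.8% of all genes) were lower and none higher (13 lower without set-4 replicate 2), with a median of -0.67, and 24 were lower without the spike-in. Within them, the eif class had 20 of 24 lower. eif-3.H, a subunit of the initiation factor that prepares the small subunit, had 217, 166 and 170.5 in set-4, against 464, 342 and 375 in N2 (log2 -1.09 ± 0.18, adjusted p = 2.60e-04). eif-3.C, another subunit of that factor, had 815, 646 and 608 in set-4, against 1278, 1236 and 1527 in N2 (log2 -0.97 ± 0.17, adjusted p = 4.91e-04). eif-6, which keeps the large subunit from joining too early, had 157, 139 and 145 in set-4, against 257, 317 and 264 in N2 (log2 -0.93 ± 0.17, adjusted p = 6.96e-04). No set-4 value of these 3 genes reached the N2 range, as for 30.3% of all genes tested.

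**Figure D3:**
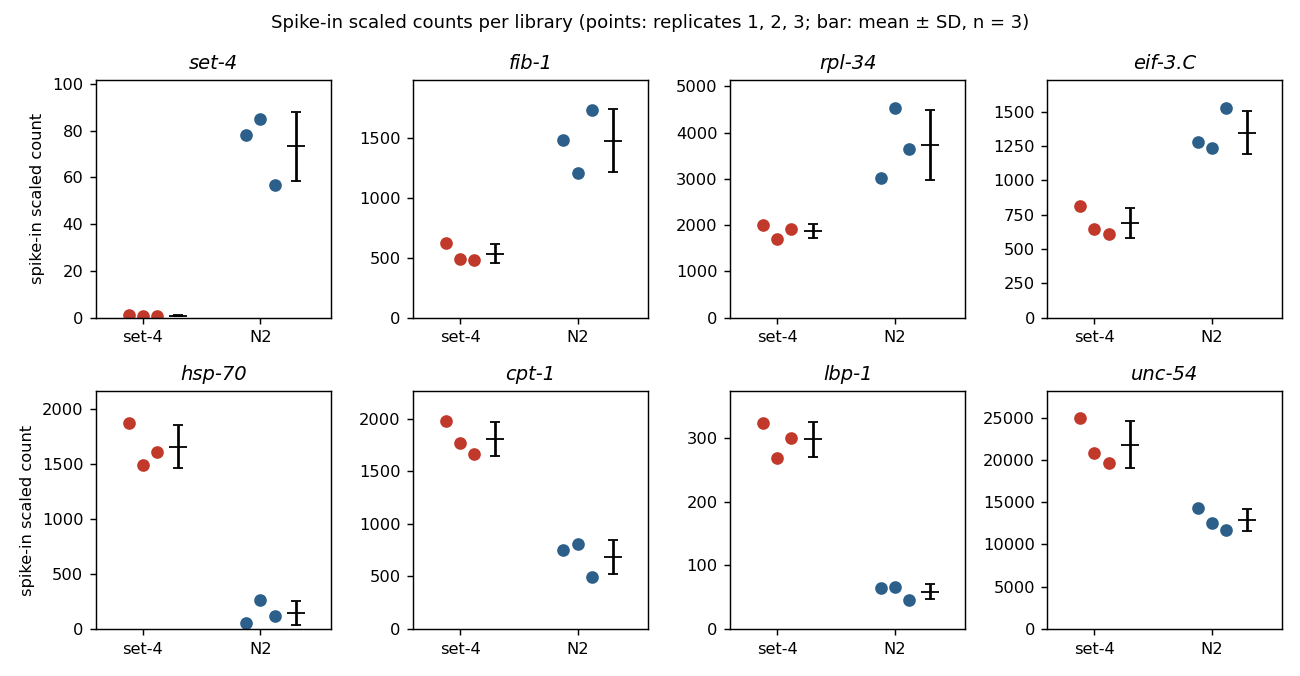
Spike-in scaled counts (y axis, each from 0) of 8 genes in the set-4 libraries (red, left) and the N2 libraries (blue, right), with replicates 1 to 3 as points and the mean ± SD (n = 3) as a bar. The set-4 values lie below all N2 values for set-4, fib-1, rpl-34 and eif-3.C and above them for hsp-70, cpt-1, lbp-1 and unc-54.

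Proteasome genes, whose products degrade ubiquitinated proteins, were mostly lower. Of 32 tested, 25 (78.1%, against 20.8% of all genes) were lower and 1 higher, with a median of -0.54. The lower count was 7 without set-4 replicate 2 and 20 without N2 replicate 1, and 12 were lower without the spike-in. rpn-5, a lid subunit, had 215, 208 and 193 in set-4, against 451, 342 and 430.1 in N2 (log2 -0.99 ± 0.17, adjusted p = 3.55e-04), and the base ATPase rpt-2 had 319, 277 and 233 in set-4, against 519, 554 and 467 in N2 (log2 -0.89 ± 0.17, adjusted p = 9.14e-04). The exception was the lid subunit rpn-3, named here after its values were seen, with 1050.4, 868 and 846 in set-4, against 619, 627 and 528 in N2. Its groups did not overlap either, in the opposite direction (log2 0.64 ± 0.16, adjusted p = 0.00704).

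Of the 10 lowest classes, several make, process or export RNA, and their counts stand beside 20.8% of all genes lower. The classes were picked for low medians in these same data, so high shares called lower follow in part from that choice. Integrator genes (ints), which cleave nascent small nuclear RNAs, had 10 of 11 lower (3 without set-4 replicate 2). Their strongest member, ints-11, the catalytic endonuclease, had 60.9, 56.6 and 57.3 in set-4, against 92.3 to 121.9 in N2 (log2 -0.93 ± 0.20, adjusted p = 0.00275). RNA polymerase II subunits (rpb) had 7 of 11 lower (3 without set-4 replicate 2), led by rpb-2, the second-largest subunit, with 239.5, 189 and 206 in set-4, against 419, 439.9 and 503 in N2 (log2 -1.11 ± 0.16, adjusted p = 1.36e-04). All 3 values of both genes in set-4 were below the N2 values, as for 30.3% of all genes tested. Nuclear pore proteins (npp) had 19 of 25 lower (8 without set-4 replicate 3), and npp-13, a scaffold nucleoporin, had 126, 119.4 and 116 in set-4, against 289, 211 and 293.8 in N2 (log2 -1.14 ± 0.18, adjusted p = 2.10e-04). Splicing factors of the prp class had 10 of 13 lower (4 without set-4 replicate 2), with prp-38 at a log2 of -1.03 ± 0.20 (adjusted p = 0.00126). Mediator subunits (mdt) had 7 of 20 lower, TFIID subunits (taf) 5 of 14 and general transcription factors (gtf) 5 of 10, again beside 20.8% of all genes, and these counts were 2, 3 and 0 with the least favourable library left out. Without the spike-in the lower genes were 5 in ints, 5 in rpb, 11 in npp and 8 in prp. They were 4 in mdt, 3 in taf and 2 in gtf, beside 11.8% of all genes.

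The algn and pals classes do other work. The algn class, enzymes of protein N-glycosylation, had 6 of 13 lower (2 without set-4 replicate 2 or without set-4 replicate 3). algn-9 had 57.9, 55.2 and 53.2 in set-4, against 116, 93.8 and 135 in N2 (log2 -1.07 ± 0.21, adjusted p = 0.00121). Without the spike-in 5 algn genes were lower. The pals class, whose members are known for their induction by microsporidia and virus, had 6 of 13 lower, but 1 without the spike-in. Only 2 of its members averaged 50 or more counts. Its strongest member, pals-6, had 17.2, 14.5 and 17.9 in set-4, against 27.3, 66.3 and 47.3 in N2 (log2 -1.52 ± 0.33, adjusted p = 0.00267), and 8 of 13 members were lower without N2 replicate 1 but 1 without set-4 replicate 1.

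Some genes of the cell cycle were lower. L1 larvae fed for hours restart the divisions of their blast cells, and DNA replication genes belong to that programme. Of 22 tested, 12 (54.5%, against 20.8% of all genes) were lower and none higher, with a median of -0.58 (2 lower without set-4 replicate 2, 5 without the spike-in). mcm-7, a subunit of the replicative helicase, had 127, 121 and 108.4 in set-4, against 275, 189 and 177 in N2 (log2 -0.83 ± 0.19, adjusted p = 0.00383), and tyms-1, thymidylate synthase, had 54.8, 64.2 and 75.3 in set-4, against 142, 119.7 and 106 in N2 (log2 -0.89 ± 0.21, adjusted p = 0.00386). Neither gene overlapped between the groups, and 30.3% of all genes tested were likewise apart with set-4 lower. Mitosis genes had 7 of 18 lower (38.9%) and none higher (2 lower without set-4 replicate 2 or without set-4 replicate 3), among them the cyclin cyb-3 with 58.9, 62.8 and 65.6 in set-4, against 120.1, 111 and 96.9 in N2 (log2 -0.79 ± 0.20, adjusted p = 0.00713). cki-1, an inhibitor of cyclin-dependent kinases and so an opponent of division, was also lower (log2 -0.86 ± 0.25, adjusted p = 0.0152). Histone genes could be read only in part, since most of their transcripts lack a poly(A) tail: 7 of 70 were tested, and 5 of these were lower, against 20.8% of all genes, but 2 without set-4 replicate 2 and 3 without the spike-in. The linker histone his-24 had 1069, 792 and 879.7 in set-4, against 2792, 1574 and 1597 in N2 (log2 -1.12 ± 0.20, adjusted p = 7.47e-04).

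Not every housekeeping family took part. The mitochondrial respiratory chain had a median of -0.02, with 2 of 42 lower and 2 higher, against 20.8% and 5.47% of all genes. Without the spike-in 1 was lower and 13 were higher, and without N2 replicate 1 the count of higher genes was 6. Both higher genes are X-linked: sdha-1, the flavoprotein of complex II, had 1235, 1049.8 and 959 in set-4, against 817, 806 and 649 in N2 (log2 0.52 ± 0.17, adjusted p = 0.027), and ucr-2.1, a core protein of complex III, had 1361, 1156 and 1094 in set-4, against 944, 844 and 796 in N2 (log2 0.48 ± 0.16, adjusted p = 0.0311). These calls were weak, and ucr-2.1 passed in 1 of 6 fits with a library left out. asb-1, an ATP synthase subunit used in the germ line, was lower (log2 -1.03 ± 0.25, adjusted p = 0.00568). None of 20 tested vacuolar ATPase genes was called in either direction by edgeR or DESeq2, 1 had an unadjusted p under 0.05, and their median was -0.08. Without the spike-in the respiratory chain and vacuolar ATPase medians were 0.20 and 0.14, so the sign of both families flips with the scaling.

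Many muscle genes rose. Of 21 tested genes that mark body wall muscle, 12 were higher and none lower, with a median of 0.52, against 5.47% of all genes higher. The count was 8 without set-4 replicate 2 or without N2 replicate 2, 15 without N2 replicate 1 and 19 without the spike-in. Members on X made up 7 of the 21, and among the 14 autosomal members 7 were higher with a median of 0.46, against 4.40% of all autosomal genes. unc-54, the major myosin heavy chain of body wall muscle, had 24941, 20784 and 19669 in set-4, against 14293, 12504 and 11762 in N2 (log2 0.76 ± 0.16, adjusted p = 0.00194). myo-3, the myosin of the thick filament centre, had 5224, 4385 and 4489 in set-4, against 2832, 2335 and 2722 in N2 (log2 0.84 ± 0.16, adjusted p = 9.53e-04). unc-22, the giant kinase twitchin, had 5142, 4057 and 3957 in set-4, against 2258, 2514 and 2701 in N2 (log2 0.81 ± 0.16, adjusted p = 0.0014). The groups were apart for each of them, as for 10.2% of all genes tested with set-4 higher. The X-linked troponin I gene unc-27 rose as well (log2 1.00 ± 0.19, adjusted p = 0.00116).

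Markers of other tissues moved less. Of 13 pharynx genes tested 4 were higher and 1 lower (8 and 0 without the spike-in), with a median of 0.29, beside 5.47% and 20.8% of all genes. The pharyngeal myosin myo-2, on X, had 9153, 7552 and 7004 in set-4, against 5323, 4703 and 4089 in N2 (log2 0.75 ± 0.16, adjusted p = 0.00277). phat-5, a small secreted protein of the pharyngeal glands, had 79.2, 95.9 and 95.3 in set-4, against 5.46, 14.4 and 11.03 in N2 (log2 3.07 ± 0.30, adjusted p = 1.26e-06), while its relative phat-6 was lower (log2 -0.81 ± 0.22, adjusted p = 0.0109). Intestine markers had a median of -0.01 (0.21 without the spike-in, 1 of 16 higher and 1 lower), neuron markers 0.15 (1 of 19 higher) and hypodermis markers -0.25 (0 of 9 called by edgeR or DESeq2, 2 with an unadjusted p under 0.05). The summed spike-in scaled counts of the whole lists were 26486 to 35608 in set-4 and 26206 to 32236 in N2 for intestine, 15128 to 17972 in set-4 and 14200 to 17132 in N2 for neurons, and 5728 to 7115 in set-4 and 6799 to 7642 in N2 for hypodermis. The sums overlapped between the groups for all 3 lists. Muscle was different, with sums of 74549 to 93425 in set-4 and 50191 to 60337 in N2, and so was pharynx, with 14960.0 to 19060 in set-4 and 10248 to 12446 in N2.

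Germ line and maternal markers had 3 of 14 lower, or 21.4%, near the 20.8% of all genes, and a median of -0.50. These were pgl-1, a P granule protein (log2 -0.89 ± 0.28, adjusted p = 0.0252), gld-1, a translational repressor (log2 -1.38 ± 0.47, adjusted p = 0.0361), and cgh-1, an RNA helicase of germ granules (log2 -0.52 ± 0.18, adjusted p = 0.0352). None of the 3 passed without set-4 replicate 2 or without set-4 replicate 3, and none passed without the spike-in. The labelled stage was checked with adult markers: no gene of the major sperm proteins and other sperm genes reached the count minimum, their summed level being 4.83 to 8.12 in set-4 and 1.82 to 7.21 in N2, and the vitellogenins, yolk proteins of adults, summed to 3.05 to 4.14 in set-4 and 7.09 to 18.7 in N2.

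Several heat shock genes rose far more than the rest of their family. Of 22 tested chaperones and regulators 10 (45.5%, against 5.47% of all genes) were higher and 2 (9.09%, against 20.8%) lower, with a median of 0.47 (6 higher without set-4 replicate 1 or without set-4 replicate 2, 13 without the spike-in). hsp-70, the stress-inducible Hsp70, had 1878, 1493 and 1609 in set-4, against 51.0, 264 and 122 in N2 (log2 3.50 ± 0.32, adjusted p = 4.87e-07). hsp-16.41, a small heat shock protein, had 3007, 2973 and 2964 in set-4, against 144, 584 and 266 in N2 (log2 3.17 ± 0.30, adjusted p = 8.98e-07). hsp-12.3, a short small heat shock protein, had 259.8, 221 and 270.0 in set-4, against 1.82, 20.2 and 17.3 in N2 (log2 4.11 ± 0.30, adjusted p = 2.63e-08). The set-4 libraries were high and even in all 3 genes, and N2 replicate 1 was the lowest and N2 replicate 2 the highest of its group for each. The N2 values of hsp-12.3 were low, with 1.82 in N2 replicate 1, so the size of its fold is uncertain.

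The other heat shock members were less uniform. hsp-16.2, a near copy of other hsp-16 genes, had 1819.7, 1597 and 1768 in set-4, against 94.6, 439.9 and 174 in N2 (log2 2.87 ± 0.32, adjusted p = 6.64e-06), and like hsp-70 and hsp-16.41 it has close copies in the genome among which reads can be lost or misplaced. hsp-12.6 rested on few reads, 84 in set-4 and 6 in N2, a ratio of 9.06 with an exact 95% interval of 3.99 to 25.4. hsp-110, named after its values were seen, rose too (log2 1.32 ± 0.20, adjusted p = 1.81e-04). The 2 lower genes, also named afterwards, were hsp-3, the chaperone BiP of the endoplasmic reticulum (log2 -0.75 ± 0.16, adjusted p = 0.00284), and hsp-75, a mitochondrial Hsp90-type chaperone (log2 -0.72 ± 0.19, adjusted p = 0.00899). The transcription factor hsf-1, also named afterwards, had 196, 197 and 175 in set-4, against 208, 211 and 182 in N2, with overlapping values (log2 -0.07 ± 0.17, adjusted p = 0.782). Without N2 replicate 1 the counts were again 10 higher and 2 lower.

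Fatty acid oxidation and fasting genes split in both directions. Of 28 tested, 12 (42.9%, against 5.47% of all genes) were higher and 6 (21.4%, near the 20.8% of all genes) lower, with a median of 0.39 (2 lower without set-4 replicate 2 or without set-4 replicate 3). The higher genes included steps of mitochondrial and peroxisomal beta-oxidation. cpt-1, a carnitine palmitoyltransferase that brings fatty acids into mitochondria, had 1982, 1769 and 1668 in set-4, against 755, 803 and 496 in N2 (log2 1.4 ± 0.18, adjusted p = 3.80e-05). acdh-7, an acyl-CoA dehydrogenase encoded on X, had 1214, 1069.8 and 1009 in set-4, against 509.5, 427 and 333 in N2 (log2 1.38 ± 0.18, adjusted p = 3.04e-05). maoc-1, an enoyl-CoA hydratase of peroxisomes, had 381, 351 and 396 in set-4, against 138, 103.8 and 102 in N2 (log2 1.73 ± 0.18, adjusted p = 2.27e-06). All 3 genes were higher in every set-4 library than in any N2 library, as were 10.2% of all genes tested. cpt-5 reached a log2 of 2.45 ± 0.26 (adjusted p = 2.96e-06). The peroxisomal genes dhs-28 (log2 0.70 ± 0.16, adjusted p = 0.00397) and daf-22 (log2 0.68 ± 0.17, adjusted p = 0.00669), which shorten the side chains of pheromones, were higher as well and were named after their values were seen. So was the peroxin class, prx, which builds peroxisomes: 4 of 10 were higher and none lower, though 1 without any given set-4 replicate, and prx-11 had 46.7, 48.3 and 42.1 in set-4, against 18.2, 17.3 and 15.8 in N2 (log2 1.43 ± 0.30, adjusted p = 0.002). Of the 4 higher prx genes 2 are X-linked.

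Lower members of the same list included other enzymes. hacd-1, a hydroxyacyl-CoA dehydrogenase, had 45.7, 25.5 and 25.6 in set-4, against 98.3, 101 and 113 in N2 (log2 -1.73 ± 0.25, adjusted p = 9.36e-05). lipl-1, a lysosomal lipase induced by fasting, was lower at a log2 of -3.16 ± 0.50 (adjusted p = 2.43e-04) and was named after its values were seen. By contrast icl-1, the glyoxylate cycle enzyme that is abundant in L1 larvae, was a weak call in the higher direction. It had 21129, 17438 and 16426 in set-4, against 16824, 11613 and 5790.3 in N2, so N2 replicate 1 lay inside the set-4 range (log2 0.68 ± 0.25, adjusted p = 0.045, passed in 1 of 6 fits with a library left out). Of 12 tested genes that mark dauer or starved L1 larvae, icl-1 among them, 2 were higher, 1 was lower and the median was 0.09. Their summed level was 19773 to 25095 in set-4 and 8474 to 20391 in N2. Most of that sum came from icl-1 in every library, so it does not describe the list.

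Of 12 tested fatty acid desaturases and elongases 2 were higher, 2 were lower and 8 were not called. The delta-9 desaturase fat-6 had 1169, 997 and 986 in set-4, against 568, 419.7 and 349.8 in N2 (log2 1.25 ± 0.18, adjusted p = 1.22e-04), and fat-5, which desaturates palmitate, had 37.5, 26.9 and 37.98 in set-4, against 0, 7.21 and 5.51 in N2 (log2 2.82 ± 0.48, adjusted p = 4.10e-04). The elongases elo-5, with 124, 123 and 134 in set-4, against 187, 222 and 318 in N2 (log2 -0.96 ± 0.19, adjusted p = 0.00152), and elo-6 (log2 -0.77 ± 0.17, adjusted p = 0.0035), which make branched-chain fatty acids, were lower. All 4 genes had groups that did not overlap, beside 10.2% of all genes apart with set-4 higher and 30.3% with set-4 lower. The X-linked gene lbp-1, a secreted fatty acid binding protein and one of the largest rises, had 325, 269 and 301 in set-4, against 63.7, 66.3 and 44.9 in N2 (log2 2.39 ± 0.20, adjusted p = 1.32e-07).

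**Figure D4:**
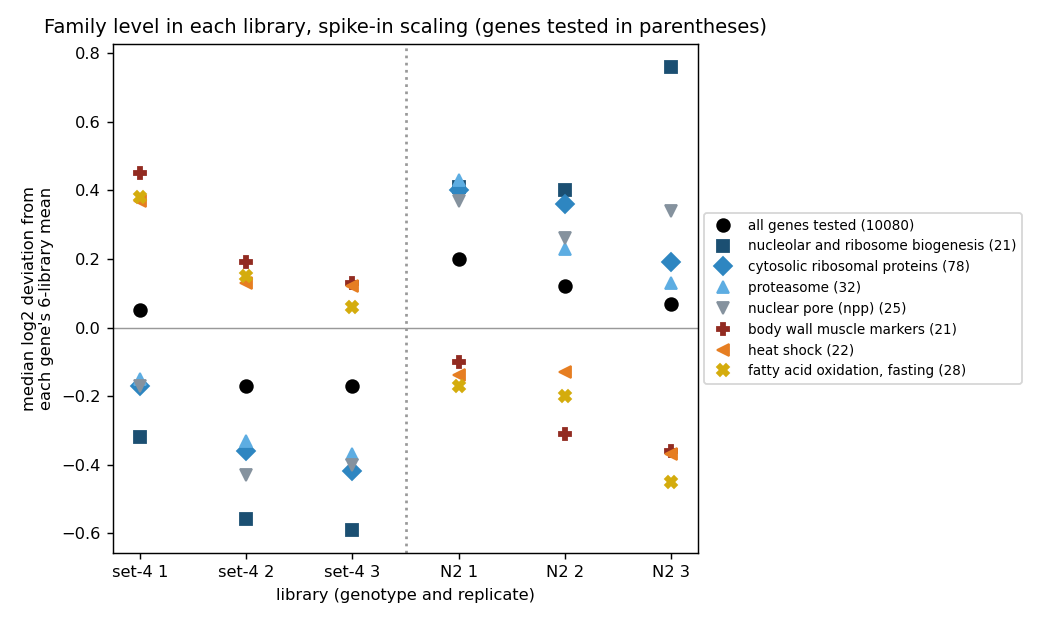
Median log2 deviation of the genes of a family from each gene's mean over the 6 libraries (y axis, log2 units, spike-in scaling) in every set-4 library (left) and N2 library (right), with the number of genes in parentheses. Nucleolar, ribosomal, proteasome and nuclear pore genes lie below zero in all set-4 libraries and above it in all N2 libraries, muscle, heat shock and fatty acid oxidation genes do the reverse, and all genes together stand at 0.05, -0.17 and -0.17 in set-4 and 0.20, 0.12 and 0.07 in N2.

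The median of the dosage compensation complex stood near the general shift, but its members not on X stood lower. For the whole list the median was -0.33, beside -0.24 for all genes and -0.31 for autosomal genes. In it 6 of the 10 genes, all tested, were below zero. Of them 5 were lower, beside 20.8% of all genes, and none was higher. The 8 members not on X had a median of -0.50 and held all 5 lower genes, beside 23.9% of autosomal genes lower. No member was called without set-4 replicate 2 or without set-4 replicate 3, and without the spike-in 3 were lower and 1 was higher. capg-1, a condensin subunit, had 189, 139 and 133 in set-4, against 304, 198 and 252 in N2 (log2 -0.71 ± 0.19, adjusted p = 0.0101). dpy-26, another condensin subunit, had 251, 209 and 202 in set-4, against 346, 355 and 301 in N2 (log2 -0.60 ± 0.16, adjusted p = 0.0115). The SMC proteins mix-1 (log2 -0.56 ± 0.16, adjusted p = 0.015) and dpy-27 (log2 -0.51 ± 0.16, adjusted p = 0.0219) and the recruiter sdc-3 (log2 -0.48 ± 0.17, adjusted p = 0.0391, named afterwards) were the other 3. dpy-21, the subunit with a demethylase domain for dimethylated H4 lysine 20, also named afterwards, had 879.9, 719 and 672 in set-4, against 466, 704 and 499.5 in N2, and did not pass (log2 0.44 ± 0.18, adjusted p = 0.0744). Of 6 tested sex determination genes 2 were lower, tra-2 (log2 -0.61 ± 0.20, adjusted p = 0.0274) and fem-2 (log2 -0.64 ± 0.22, adjusted p = 0.0372). These calls were weak, with no gene lower without the spike-in, without set-4 replicate 2 or without set-4 replicate 3, and fem-2 passed in 1 of 6 fits with a library left out.

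Cuticle and moulting genes were mixed. Of 44 tested cuticle collagens 7 were higher and 5 lower (15.9% and 11.4%, against 5.47% and 20.8% of all genes), with a median of 0.21. These counts were 13 and 3 without the spike-in, 13 and 8 without N2 replicate 1 and 4 and 4 without set-4 replicate 1. col-80 had 427, 313 and 350.1 in set-4, against 196, 127 and 106 in N2 (log2 1.37 ± 0.21, adjusted p = 1.51e-04), and col-160 had a log2 of 1.05 ± 0.17 (adjusted p = 2.16e-04), whereas col-77 was lower (log2 -2.11 ± 0.46, adjusted p = 0.00251). Moulting genes had 2 of 29 higher and 5 lower (6.90% and 17.2%). mlt-11, a protease inhibitor-like protein of the moult, had 9.13, 15.2 and 9.67 in set-4, against 153, 79.3 and 61.5 in N2, with a wide gap between the groups (log2 -3.03 ± 0.35, adjusted p = 1.08e-05). The apical matrix proteins noah-1 (log2 -1.53 ± 0.31, adjusted p = 0.00163) and noah-2 (log2 -1.55 ± 0.32, adjusted p = 0.00175) fell with it, and the metalloprotease nas-9 was higher (log2 1.06 ± 0.21, adjusted p = 0.00152). Hedgehog-related and patched-related genes, with a median of -0.08 that became 0.14 without the spike-in, had 4 of 30 higher and 3 lower (8 and 1 without the spike-in, 7 and 5 without N2 replicate 1), with grl-21 higher (log2 1.37 ± 0.30, adjusted p = 0.0028) and grl-16 called lower on 6 reads in set-4 against 69 in N2, none of them in N2 replicate 1. Of 39 transthyretin-like genes 7 were higher and 3 lower (17.9% and 7.69%), with 15 higher without the spike-in and 12 without N2 replicate 1, and ttr-5 had 68.0, 57.97 and 55.9 in set-4, against 20.0, 8.65 and 11.03 in N2 (log2 2.25 ± 0.32, adjusted p = 9.36e-05).

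Families of defence, detoxification and signalling had members in both directions, and their counts stand beside 5.47% of all genes higher and 20.8% lower. C-type lectins had 14 of 58 higher, or 24.1%, and 6 lower, or 10.3% (5 higher without set-4 replicate 1 or without set-4 replicate 2). clec-72 had 402, 329 and 345 in set-4, against 160.1, 164 and 142 in N2 (log2 1.21 ± 0.17, adjusted p = 6.94e-05), and clec-52 had 131, 103.5 and 112 in set-4, against 291, 307 and 303 in N2 (log2 -1.38 ± 0.17, adjusted p = 1.60e-05). The fold of clec-74 rested on 59 reads in set-4 and 2 in N2, a ratio of 19.1 with an exact 95% interval of 5.06 to 161. Lysozymes and saposins had 4 of 23 higher and 5 lower (17.4% and 21.7%), with spp-14 lower (log2 -1.16 ± 0.17, adjusted p = 1.03e-04) and spp-2 higher (log2 1.04 ± 0.20, adjusted p = 0.00101), both on X. Detoxification genes of the cyp, ugt and gst classes had 14 of 120 higher and 17 lower (11.7% and 14.2%; 21 and 9 without the spike-in, 10 and 6 without set-4 replicate 2), with a median of -0.05 that became 0.17 without the spike-in, and ugt-13 (log2 1.67 ± 0.22, adjusted p = 3.99e-05) and ugt-22 (log2 -1.62 ± 0.22, adjusted p = 4.46e-05) moved against each other. Gut proteases had 3 of 21 higher and 6 lower (7 higher and 2 lower without the spike-in, 1 lower without set-4 replicate 2), with cpr-2 at a log2 of -2.71 ± 0.37 (adjusted p = 6.46e-05). Small nematode-specific and antimicrobial peptides were few: 2 of 8 nematode-specific peptides were higher and 4 lower, and 1 of 14 caenacin-type peptides was higher and 3 lower.

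Regulators and neuronal signals had few calls beside the 5.47% of all genes higher and 20.8% lower. Nuclear hormone receptors had 11 of 147 higher (7.48%) and 5 lower (3.40%), and a median of -0.03 that became 0.18 without the spike-in, with nhr-17, on X, at 368, 335 and 347 in set-4, against 89.2, 151 and 132 in N2 (log2 1.48 ± 0.19, adjusted p = 2.34e-05). Without the spike-in 25 receptors were higher and 1 lower, and with single libraries left out 4 to 15 were higher and 1 to 10 lower. Of the 11 higher receptors 6 are X-linked. Homeobox and bHLH factors had 1 of 41 higher, hlh-30, a regulator of lysosomal and fasting genes (log2 0.45 ± 0.16, adjusted p = 0.0411), and 1 lower, ceh-100 (log2 -0.70 ± 0.17, adjusted p = 0.00609). Neuropeptides had 6 of 99 higher and 5 lower (11 and 2 without the spike-in, 9 and 9 without N2 replicate 1). flp-8, on X, had 394, 331 and 369 in set-4, against 178, 226 and 159.9 in N2 (log2 0.96 ± 0.17, adjusted p = 7.09e-04), and the insulin-like peptide ins-26 had 66.0, 60.7 and 63.5 in set-4, against 164, 173 and 91.4 in N2 (log2 -1.14 ± 0.23, adjusted p = 0.00158). In the insulin pathway, whose median was -0.14 with the spike-in and 0.08 without it, 3 of 10 were lower, the PI3 kinase age-1 (log2 -0.95 ± 0.21, adjusted p = 0.00289), the phosphatase daf-18 (log2 -0.65 ± 0.21, adjusted p = 0.0294) and ddl-1 (log2 -0.82 ± 0.29, adjusted p = 0.043), while the transcription factor daf-16, named afterwards, had 381, 340.3 and 329 in set-4, against 371, 348 and 334 in N2. The insulin count was 1 without the spike-in, with DESeq2, without set-4 replicate 2 or without set-4 replicate 3, and ddl-1 passed in 1 of 6 fits with a library left out. Among the remaining high classes, the mec class of touch receptor genes had 3 of 13 higher and 1 lower (1 higher with any set-4 replicate left out, 6 without the spike-in), with the tubulin mec-7, on X, at a log2 of 0.64 ± 0.17 (adjusted p = 0.0113), ptr had 3 of 16 higher (1 with any set-4 replicate left out) and glb 1 of 27 (none with DESeq2), and zig had 1 of 10 lower. Of the higher genes, 2 of 3 in mec and 1 of 3 in ptr are X-linked. The clc and gpa classes had no call by edgeR or DESeq2, with 0 of 12 and 1 of 10 genes at an unadjusted p under 0.05.

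Single genes outside these lists filled much of the largest changes. Where counts averaged 50 or more and the groups did not overlap, the widest fall belonged to srw-85, a predicted chemoreceptor on chromosome V, with 7.10, 2.07 and 3.45 in set-4, against 171, 137 and 114 in N2 (log2 -5.11 ± 0.34, adjusted p = 1.01e-08). scl-3, a secreted SCP-type protein, had 48.7, 44.9 and 40.7 in set-4, against 257, 300.0 and 237 in N2 (log2 -2.56 ± 0.19, adjusted p = 2.96e-08). fkb-5, a prolyl isomerase, had 59.9, 39.3 and 52.5 in set-4, against 269, 149 and 187 in N2 (log2 -1.99 ± 0.23, adjusted p = 1.19e-05). Separation of the groups was a condition of the rule and is not a further result. srw-85 met the count minimum only through its N2 libraries. C25F9.2 had a log2 of -2.77 ± 0.41 but 25.5 in N2 replicate 1 beside 170.2 and 113 in the other N2 libraries. The remaining large falls by the same rule were T28A11.2, W02B12.1, scl-24, T07D3.4, spp-17 and cyp-35A2, with log2 values between -1.92 and -1.60.

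The largest rises beside heat shock and lipid genes were oac-14, a predicted acyltransferase on X, with 191, 204 and 189.9 in set-4, against 3.64, 40.4 and 14.2 in N2 (log2 3.32 ± 0.34, adjusted p = 2.08e-06), and dod-24, a gene known as regulated downstream of daf-16, with 414, 328 and 365 in set-4, against 76.4, 75 and 93.8 in N2 (log2 2.15 ± 0.18, adjusted p = 1.62e-07). K05B2.4, on X, had a log2 of 2.33 ± 0.24, R11A5.3 of 2.26 ± 0.25 and K01A6.4 of 2.2 ± 0.32. In oac-14 and K01A6.4 N2 replicate 1 was again the lowest library. Each of the 12 largest rises and 12 largest falls passed in all 6 fits with a library left out. These genes were picked from the same libraries, so this is not independent support.

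A last list holds genes that had also been chosen for RT-qPCR in these worms and is therefore not independent evidence of a direction. Of its 15 genes 14 were tested, and 2 were higher and 5 lower, beside 5.47% and 20.8% of all genes. Without the spike-in 5 were higher and 4 lower, with DESeq2 none was higher and 4 were lower, none was higher without set-4 replicate 1, and 2 were lower without set-4 replicate 2. With a library left out, rgs-6 passed in 2 of 6 fits and nspc-19 in 1 of 6. B0294.1, on X, had 308, 257 and 238 in set-4, against 539, 930.3 and 647 in N2 (log2 -1.4 ± 0.19, adjusted p = 6.86e-05). tatn-1, tyrosine aminotransferase, on X, had 962, 832 and 845 in set-4, against 138, 619 and 367 in N2 (log2 1.22 ± 0.29, adjusted p = 0.00498), and the N2 values were widely spread below the set-4 values. rgs-6 was the other higher gene (log2 0.56 ± 0.19, adjusted p = 0.035), ddn-1, ssna-1, C12D5.9 and nspc-19 were the other lower ones, and kin-3, pmp-2, hlh-11, tag-115, rig-3, ifp-1 and dhs-25 did not pass.

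The same families were looked up in L3 libraries of the series, which had no spike-in. At the L3 stage, 4 set-4 against 4 N2 libraries, scaled to each other by their median gene, had an all-gene median of -0.01. Cytosolic ribosomal proteins had an L3 median of 0.25, the proteasome 0.23, translation factors 0.17, DNA replication 0.24, nucleolar genes 0.12, body wall muscle 0.04, heat shock 0.05 and fatty acid oxidation -0.04. In contrast, nematode-specific peptides (-0.39), the pals class (-0.27) and histones (-0.20), low at L1, were also below the all-gene median at L3. That scale centres the whole transcriptome near zero and cannot show an absolute shift. Across 9819 genes the L1 and L3 log2 values had a Spearman correlation of -0.20, a description over genes that are not independent replicates. set-4 itself had 0.422, 0.895, 0 and 0.0965 FPKM in set-4 L3 libraries, against 8.29, 11.2, 9.88 and 7.96 FPKM in N2 L3 libraries, and srw-85 was low at L3 too (log2 -4.57).

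Developmental timing was read from N2 libraries of other stages. Nucleolar genes had an L3 over L1 median of -0.67 and an L1 over comma-stage embryo median of 0.42 in N2. In the same order the medians were 0.24 and 1.08 for cytosolic ribosomal proteins, 0.46 and 1.23 for the proteasome and 0.26 and 0.12 for DNA replication. Muscle markers, which had risen in set-4, had 0.81 and 0.91. Over all genes, the Spearman correlation of the set-4 fold change was -0.03 with the N2 L3 over L1 ratio (9972 genes) and 0.09 with the N2 L1 over comma ratio (9938 genes). The median log2 L1 over comma ratio was 1.09 for genes called higher, 0.08 for genes called lower and 0.06 for all genes. At log2 L1 over comma ratios of 1.98 to 11.36, 10.06% of genes were called higher and 11.22% lower. At ratios of -0.35 to 0.48 these shares were 3.42% and 31.1%. Shares called lower were 16.2% at log2 L3 over L1 ratios below -0.75, 25.3% at -0.20 to 0.22 and 15.1% above 0.74. By library, the correlation of the deviation from the mean with the L1 over comma ratio was 0.06 to 0.11 in set-4 and -0.08 to -0.03 in N2. Whether stage plays a part in the family results was not tested.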

How the data were processed

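Poly(A) RNA of 6 mixtures of L1 larvae was sequenced with a strand-marking kit. Per the labels and the paper's methods, the authors aligned reads to the C. elegans and the C. briggsae genome, discarded reads that matched both, and deposited a table of raw read counts per gene for each species; genes conserved between the species therefore lose reads. The submitters' processing notes name CASAVA 1.8, TopHat2 2.0.11, HTSeq 0.6.0 and Cufflinks 2.2.0, and the strand setting of the counting is not given in the sources used here, so overlapping and antisense genes are uncertain, as are near-identical copies (hsp-16, hsp-70 and nspc genes). The authors' own linear-model scaling to C. briggsae is not used here. The L3 and other stage values are FPKM that the authors deposited, of which 74 of 92 columns were not used; an N2 L1 column identical to a column of another strain was left out, FPKM were scaled by their median ratio, and log2 values used FPKM plus 0.1 for genes with a mean above 1.

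Library sizes were the TMM effective sizes of the C. briggsae counts (3978 genes). Its 5 lines that name no gene (24.5% to 26.9% of all C. briggsae entries) stayed out. Genes averaging 10 or more counts were tested with edgeR 4.0.16 (R 4.3.3, quasi-likelihood, Benjamini-Hochberg threshold 0.05), which gives every adjusted p, and DESeq2 1.42.0 was an alternative. Tables used Python 3.11.15, pandas 2.3.3 and numpy 2.4.6, and the tests were run on simulated data with known changes. Single values were compared by exact permutation. Intervals cover counting error only. Symbols were matched for 19179 of 20389 gene IDs, and chromosomes were taken from RefSeq by sequence name for 19879 genes, by symbol for 8 and for 502 not at all.

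Named were set-4, set-1 and the RT-qPCR genes, then the 12 largest rises and 12 largest falls among called genes averaging 50 or more counts with groups that did not overlap, then up to 4 members of each family with the smallest p; other genes are said to be named afterwards. The 10 lowest and 10 highest gene classes with at least 10 tested genes were described. The members, lists and families were chosen with earlier results of these data known. Same-numbered libraries did not deviate together (correlations 0.08, 0.03 and 0.02), so they were not paired.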

Additional observations from a re-analysis of the deposited data

How the results depend on the processing

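The split of calls rested on the scaling: C. elegans TMM without the spike-in gave 1207 higher and 1192 lower genes and an all-gene median of -0.02. Leaving out single libraries gave 1091 to 3119 calls, of which 293 to 795 were higher and 788 to 2324 lower, the fewest lower without set-4 replicate 2. The X minus autosome median was 0.41 with no filter on low counts. Scaling by summed C. briggsae counts gave 596 higher and 2048 lower genes, and C. briggsae median of ratios gave 550 and 2123. No filter gave 605 and 2172, a mean of at least 50 counts 439 and 1719, and DESeq2 433 and 1687. With the replicate number as a block, 583 genes were higher and 2063 lower, and the log2 count ratio differed by -0.16 (exact sign-flip p = 0.25, the smallest possible). Of 238 named genes, 27 no longer passed with DESeq2, 27 without the spike-in, 9 with the block and 58 without set-4 replicate 2, and none was reversed in these fits. C. briggsae counts were lowest in N2 replicate 1, at 129184, and the precision of its scaling was not measured.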
